A study of Homo sapiens with 3 samples.

Results

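The genes described here are 6 members of the apelin, VEGF and PDGF systems, found by symbol among the 38606 genes counted in each of 3 single-cell libraries. They are the receptors APLNR (ENSG00000134817), KDR (ENSG00000128052) and PDGFRA (ENSG00000134853) and the ligands APELA (ENSG00000248329), APLN (ENSG00000171388) and VEGFA (ENSG00000112715). Each symbol matched 1 gene ID. The cells were of the HES3 MIXL1:GFP line, human embryonic stem cells that report the streak gene MIXL1 by green fluorescence. They were grown as colonies on micropatterned coverslips in mTeSR Plus, seeded with 10 µM of the ROCK inhibitor Y27632, and treated from 24 h after seeding for 48 h. The BMP4 colonies received 50 ng/mL of BMP4, a BMP pathway ligand. The CHIR+Activin colonies received 3 µM of CHIR99021, a GSK3 inhibitor that activates WNT signalling, together with 100 ng/mL of Activin A, which acts through the receptors that NODAL uses. The CHIR colonies received 6 µM of CHIR99021 alone, so the dose of CHIR99021 differs between the last 2 arms as well as the presence of Activin. Each arm was 1 library made from about 10 pooled micropatterns. No replicate error can be given, no test between treatments was made, and differences between libraries describe these libraries.

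APLNR is a G protein-coupled receptor that binds either of 2 peptide ligands, apelin (from APLN) and ELABELA (from APELA, also called Toddler), and in zebrafish and mouse the system is needed for mesoderm cell movement and heart development. KDR, also called VEGFR2, is the main signalling receptor for VEGFA. It is best known from endothelium and its precursors, but human pluripotent cells carry it too. PDGFRA is the receptor tyrosine kinase through which PDGFA and PDGFC act, and with KDR it is widely used to recognise early mesoderm that can form heart and vessels.

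After filtering, 9401 BMP4, 6876 CHIR+Activin and 7084 CHIR cells were kept, with 137174566, 130592423 and 185215378 unique molecular identifiers (UMIs, counted RNA molecules). Median depth per cell was 12623, 17202 and 22919 UMIs in the same order. Levels are given as CPM, a gene's UMIs scaled so that all UMIs of the cells named sum to the same fixed total in every group. Each interval is an exact 95% one that reflects counting error alone. Pairs of libraries shared between 8 and 12 cell barcodes. The BMP4 matrix held all droplets, and its free RNA could be read from droplets with at most 100 UMIs: APLNR stood at 59.7 CPM there, KDR at 87.4, PDGFRA at 28.3, VEGFA at 23.6, APELA at 20.3 and APLN at 0.681. Free RNA can therefore add to low levels in BMP4 cells, and its part in them was not tested. The 12 haemato-endothelial markers summed to 30.9 CPM in BMP4, 28.5 in CHIR+Activin and 30.8 in CHIR. EGFL7, at 16.4, 18.3 and 18.1 CPM in the same order, and the angiopoietin receptor TEK, at 6.39, 4.59 and 6.30 CPM, made up most of these sums. The endothelial junction genes PECAM1 and CDH5, the surface marker CD34 and the blood factor TAL1 were the lowest of the list, at or under 0.190 CPM in every library.

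Across the libraries the receptor genes did not move as a group. APLNR stood at 38.4 CPM in BMP4, 3.01 in CHIR+Activin and 0.999 in CHIR. PDGFRA followed the same order, with 35.4 CPM in BMP4, 8.59 in CHIR+Activin and 2.82 in CHIR. KDR was nearly level at 51.5 CPM in BMP4, 42.3 in CHIR+Activin and 39.6 in CHIR. The ligand APELA was at 19.7 CPM in BMP4, 7.80 in CHIR+Activin and 7.67 in CHIR, and the last 2 did not differ beyond counting error (log2 ratio 0.02, interval -0.09 to 0.14). VEGFA ran the other way, with 9.34 CPM in BMP4, 21.4 in CHIR+Activin and 31.4 in CHIR. APLN, the classical apelin ligand, was scarce, at 0.452 CPM in BMP4, 0.796 in CHIR+Activin and 1.26 in CHIR.

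**Figure D1:**
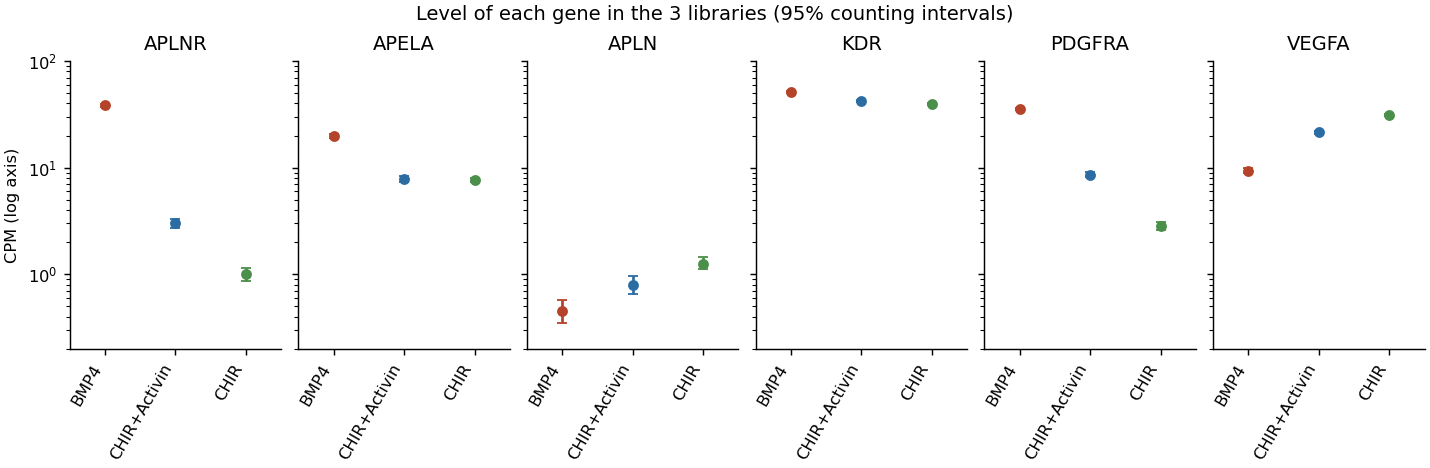
Level of each gene in CPM on a log axis in the BMP4, CHIR+Activin and CHIR libraries. Points are values summed over the kept cells and bars are 95% counting intervals, most of them smaller than the point. APLNR and PDGFRA drop from left to right, KDR stays between 39.6 and 51.5 CPM, and VEGFA climbs.

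Between BMP4 and CHIR+Activin, 5 members had at least 10 CPM in either library. Of these, 3 (APLNR, APELA and PDGFRA) were at least 2-fold higher in BMP4, where 2.88% of 9968 genes were, and 1 (VEGFA) was at least 2-fold lower, where 1.84% of genes were. The log2 ratios were 3.67 for APLNR (interval 3.52 to 3.82), 2.04 for PDGFRA (1.95 to 2.14), 1.34 for APELA (1.23 to 1.44), 0.28 for KDR (0.23 to 0.34) and -1.19 for VEGFA (-1.29 to -1.10). The same 3 and the same 1 stood at least 2-fold apart between BMP4 and CHIR, beside 3.09% of 10122 genes higher and 2.85% lower. APLNR was 38.4-fold higher there, PDGFRA 12.6-fold and APELA 2.57-fold, KDR was 1.30-fold higher, and VEGFA was 3.37-fold lower. Only KDR and VEGFA reached 10 CPM between CHIR+Activin and CHIR, and 0 of them stood 2-fold apart, beside 0.183% of 9821 genes higher and 0.0204% lower. VEGFA was 1.47-fold lower in CHIR+Activin than in CHIR. Under the 10 CPM minimum, APLNR was 3.01-fold and PDGFRA 3.05-fold higher in CHIR+Activin than in CHIR. The pairs share libraries. In sums over mixed cells, fewer cells of a kind and less RNA per cell cannot be told apart.

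Other genes of the 3 pathways were taken from lists, and those with at least 10 CPM in any library are given. The VEGF list had 5 of 10 such genes and the PDGF list 2 of 7. NRP1, a co-receptor for VEGFA and semaphorins, moved with APLNR and PDGFRA, at 13.4 CPM in BMP4, 3.32 in CHIR+Activin and 0.864 in CHIR. Its paralog NRP2 stood at 34.4 CPM in BMP4, 20.3 in CHIR+Activin and 16.1 in CHIR. FLT1, which binds VEGFA tightly and signals weakly, stood at 22.9 CPM in BMP4, 31.4 in CHIR+Activin and 28.9 in CHIR. PDGFD, a ligand that acts mainly through PDGFRB, was nearly level at 17.6, 19.6 and 18.8 CPM in BMP4, CHIR+Activin and CHIR. All the other VEGF and PDGF ligands and receptors of the lists stayed under 10 CPM in every library.

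The ligand APELA was lower in BMP4 cells with a UMI of its receptor APLNR than in those without. For this and all later comparisons within a library, each cell was thinned to 10000 UMIs, which left 7041 BMP4, 6543 CHIR+Activin and 6892 CHIR cells. An APLNR UMI was found in 1735 BMP4 cells (24.6%, interval 23.6 to 25.7), with a median depth before thinning of 13865 UMIs against 14539 in the 5306 cells without one. As a background, an APLNR UMI was found in 5.67% of the BMP4 cells with at least 2 UMIs of the epiblast gene SOX2, at a median depth of 16389 UMIs. APELA stood at 6.46 CPM in the APLNR cells and 23.2 CPM in cells without an APLNR UMI (log2 ratio -1.85, interval -2.14 to -1.57). An APELA UMI was found in 5.01% of APLNR cells (4.04 to 6.15), which is 87 cells with both, and in 14.9% of the others (13.9 to 15.9). APELA was lower by a like amount in BMP4 cells with a PDGFRA UMI, at 6.60 against 22.9 CPM (log2 ratio -1.80), and lower in those with a KDR UMI, at 11.9 against 23.3 CPM (log2 ratio -0.97). APELA was at 23.2 CPM in cells with 0 APLNR UMIs, 8.19 with 1, 4.16 with 2 and 2.79 with 3 or more. The last 2 levels rest on 17 UMIs (interval 2.42 to 6.65) and 7 UMIs (interval 1.12 to 5.75), and their intervals overlap. Read from the ligand side, APLNR was at 13.2 CPM in the 877 cells with an APELA UMI and 43.2 CPM in the 6164 without. Over all genes, 3.71% of 9894 were at least 1.5-fold higher and 5.36% at least 1.5-fold lower in the APLNR cells, and 5.35% of 9975 were higher and 3.88% lower in the APELA cells. In the 164 APLNR cells of CHIR+Activin APELA was also lower, at 2.44 CPM from 4 UMIs against 8.25 CPM in cells without (log2 ratio -1.76, interval -3.64 to -0.39), and between -1.76 and -0.50 under other settings. There 7.81% of 10061 genes with at least 10 CPM in either group were at least 1.5-fold higher and 8.04% lower, many of them on few UMIs. APELA was under that minimum there. In CHIR, with 68 APLNR cells, the difference was within counting error (4.41 and 7.71 CPM, log2 ratio -0.81, interval -3.09 to 0.75). By KDR, CHIR+Activin differed in direction from BMP4. APELA there was higher in cells with a KDR UMI, at 9.90 against 7.27 CPM (log2 ratio 0.45, interval 0.19 to 0.70).

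PDGFRA behaved in the opposite way to APELA. It stood at 79.7 CPM in BMP4 cells with an APLNR UMI and 22.5 CPM in cells without (log2 ratio 1.82, interval 1.71 to 1.94). With 0, 1, 2 and 3 or more APLNR UMIs the PDGFRA level was 22.5, 67.8, 93.4 and 108 CPM. A PDGFRA UMI was found in 46.1% of APLNR cells and 16.1% of the others. The ratio was larger in CHIR+Activin, at 62.8 CPM in APLNR cells and 7.37 CPM in the others (log2 ratio 3.09, interval 2.77 to 3.40). Both levels were under those of BMP4, and the level in the others was under it by the larger fold. The part of free RNA in the BMP4 levels was not tested. In CHIR the PDGFRA difference was within counting error, at 7.35 CPM from 5 UMIs against 2.54 CPM (log2 ratio 1.54, interval -0.10 to 2.79). NRP1 shared the relation seen in BMP4 and CHIR+Activin. It stood at 31.8 CPM in BMP4 cells with an APLNR UMI and 8.16 CPM in those without, and at 31.7 and 2.56 CPM in the same cells of CHIR+Activin. Over all BMP4 cells KDR did not differ with APLNR beyond counting error, with 52.9 CPM in APLNR cells and 52.8 CPM in the others (log2 ratio 0.00, interval -0.11 to 0.11). Within HAND1 cells it was higher in those with an APLNR UMI, at 52.8 against 32.6 CPM (log2 ratio 0.69, interval 0.47 to 0.92), and within TBXT and MIXL1 cells slightly lower (log2 ratios -0.18 and -0.15). In CHIR+Activin KDR was lower in APLNR cells, at 24.4 CPM against 42.1 CPM (log2 ratio -0.79, interval -1.28 to -0.34, and between -1.55 and -0.48 under other settings). In CHIR it was at 23.5 against 39.1 CPM (log2 ratio -0.73, interval -1.54 to -0.03).

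**Figure D2:**
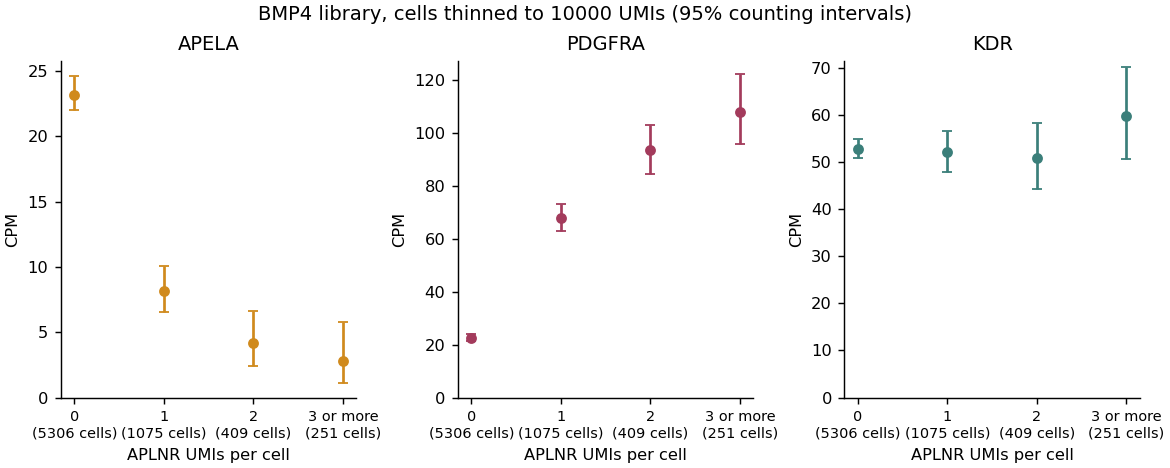
CPM of APELA, PDGFRA and KDR in BMP4 cells grouped by the number of APLNR UMIs after thinning to 10000 UMIs, with 95% counting intervals and the number of cells under each group. APELA goes from 23.2 to 2.79 CPM as APLNR UMIs increase, PDGFRA from 22.5 to 108 CPM, and KDR stays between 50.9 and 59.8 CPM.

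VEGFA and its receptor KDR showed no such relation in BMP4 or CHIR+Activin, and few genes of any kind divided by KDR. Of 9754 genes with at least 10 CPM in either group in BMP4, 0.0205% were at least 1.5-fold higher and 0.615% lower in KDR cells. VEGFA was just under that minimum. After thinning, the variance over the mean was 1.30 for KDR and 1.03 for VEGFA in BMP4, and 1.19 and 1.06 in CHIR+Activin. Values near 1 are those of sampling alone, so a split by KDR UMIs has little power to show a relation. VEGFA was at 9.0 CPM in the 2601 BMP4 cells with a KDR UMI and 9.01 CPM in the 4440 without (log2 ratio -0.00, interval -0.24 to 0.23). The values were 21.6 and 21.3 CPM in CHIR+Activin (log2 ratio 0.03, interval -0.14 to 0.19). In CHIR they were 29.2 and 32.6 CPM (log2 ratio -0.16, interval -0.30 to -0.02). FLT1 was modestly higher in cells with a KDR UMI in every library, at 26.7 against 21.4 CPM in BMP4, 34.4 against 28.6 CPM in CHIR+Activin and 29.7 against 26.8 CPM in CHIR.

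The PDGFRA ligands PDGFA and PDGFC, each under 10 CPM over each library, were lower in PDGFRA cells of BMP4. PDGFA was at 1.33 CPM in the 1652 BMP4 cells with a PDGFRA UMI and 4.56 CPM in those without (log2 ratio -1.78, interval -2.48 to -1.15, and between -2.82 and -1.37 under other settings). PDGFC was at 4.60 and 9.52 CPM in the same cells (log2 ratio -1.05, interval -1.42 to -0.70, and between -1.69 and -0.51 under other settings). Both were lower by a like amount in BMP4 cells with an APLNR UMI. There PDGFA was at 1.21 against 4.66 CPM (log2 ratio -1.94) and PDGFC at 4.15 against 9.74 CPM (log2 ratio -1.23). PDGFB, also on the PDGF list, was at 0.545 CPM in BMP4 cells with a PDGFRA UMI and 0.965 CPM in those without. Its interval included 0 (log2 ratio -0.82, interval -2.03 to 0.21). PDGFD, the only PDGF ligand of the list at 10 CPM or more, did not differ beyond counting error. It was at 19.1 CPM in BMP4 cells with a PDGFRA UMI and 18.4 CPM in those without (log2 ratio 0.06, interval -0.13 to 0.24). Of 9891 genes with at least 10 CPM in either group of cells, 3.34% were at least 1.5-fold higher and 4.33% lower in the PDGFRA cells. PDGFA, PDGFB and PDGFC were under that minimum, so these shares do not cover them. PDGFA and PDGFC were instead higher in BMP4 cells with an APELA UMI, PDGFA at 6.84 against 3.37 CPM and PDGFC at 16.0 against 7.28 CPM. The intervals of both ratios included 0 in CHIR+Activin (PDGFA -0.18, interval -0.76 to 0.36, and as low as -1.27 with cells thinned to 5000 UMIs, interval -3.16 to 0.11, and PDGFC -0.05, interval -0.58 to 0.43) and in CHIR (PDGFA 0.24, interval -0.54 to 0.94, and PDGFC -0.41, interval -1.42 to 0.44).

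The cells were then grouped by marker genes, comparing cells with at least 2 UMIs of a marker with cells that had none. Groups of different markers overlap and hold no cell type names. MESP1, a transcription factor of nascent mesoderm, set APLNR and PDGFRA apart in BMP4. APLNR was at 76.8 CPM in the 3082 MESP1 cells and 6.80 CPM in the 3090 cells with none, and PDGFRA at 66.1 and 10.3 CPM. MESP1 cells were 43.8% of the thinned BMP4 cells and held 85.2% of their APLNR UMIs, 79.0% of their PDGFRA UMIs, 44.5% of their KDR UMIs and 14.6% of their APELA UMIs. CHIR+Activin had 61 such cells and CHIR had 1. In the 61 CHIR+Activin cells APLNR stood at 80.3 CPM and PDGFRA at 78.7 CPM. Between MESP1 cells of BMP4 and of CHIR+Activin the log2 ratio was -0.07 for APLNR (interval -0.47 to 0.37) and -0.25 for PDGFRA (interval -0.66 to 0.19), whereas KDR was at 53.8 CPM in BMP4 and 19.7 CPM in CHIR+Activin MESP1 cells (log2 ratio 1.45, interval 0.64 to 2.41). Among cells with no MESP1 UMI the BMP4 library still exceeded CHIR+Activin, by a log2 ratio of 1.66 for APLNR (interval 1.34 to 1.98) and 0.44 for PDGFRA (interval 0.23 to 0.64). The BMP4 levels behind this, 6.80 and 10.3 CPM, were near those of BMP4 SOX2 cells, at 6.44 and 10.3 CPM. The part of free RNA in this excess was not tested.

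APELA was highest in a separate set of BMP4 cells. TFAP2A is a transcription factor of amnion and of germ cell precursors, and APELA stood at 97.1 CPM in the 454 TFAP2A cells against 10.6 CPM in the 5853 cells with none (log2 ratio 3.20, interval 3.02 to 3.38). These cells were 6.45% of the thinned cells and held 32.8% of the APELA UMIs. HAND1, a factor of lateral and extraembryonic mesoderm, was carried by cells of both kinds. The 1166 BMP4 cells with HAND1 and MESP1 had APLNR at 112 CPM, PDGFRA at 80.4 CPM and APELA at 5.75 CPM. The 303 cells with HAND1 and no MESP1 UMI had APLNR at 12.2 CPM, PDGFRA at 8.91 CPM and APELA at 123 CPM. Within the HAND1 cells as a whole, APELA was at 6.03 CPM where an APLNR UMI was found and 54.1 CPM where none was (log2 ratio -3.16, interval -3.63 to -2.73). APELA was also lower in the APLNR cells within each of 5 further marker groups, with log2 ratios of -1.15 in TBXT cells, -0.85 in MIXL1 cells, -1.69 in EOMES cells, -1.08 in MESP1 cells and -1.23 in SOX17 cells. In cells with a KDR UMI over those without, the APELA log2 ratio was -2.17 in HAND1 cells and -0.96 in SOX17 cells. It was -0.12 in TBXT, -0.10 in MIXL1, 0.04 in EOMES and 0.03 in MESP1 cells, each with an interval that includes 0. TFAP2A was all but absent from the other libraries, with 0 cells at 2 or more UMIs. Among cells without a TFAP2A UMI the BMP4 excess of APELA shrank to a log2 ratio of 0.38 over CHIR+Activin (interval 0.22 to 0.55) and 0.46 over CHIR (interval 0.29 to 0.63).

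KDR was near level over most BMP4 cells and low in HAND1 cells that carried TFAP2A or lacked MESP1. It stood at 51.8 CPM in the HAND1 and MESP1 cells, 55.1 CPM in MESP1 cells without HAND1 and 59.4 CPM in the 1920 cells with no UMI of HAND1, TFAP2A, MESP1 or SOX17. It was at 10.2 CPM in HAND1 cells without MESP1 (interval 6.95 to 14.5). In the 218 cells with HAND1 and TFAP2A it was at 6.42 CPM (interval 3.51 to 10.8), from 14 UMIs, at a median depth of 18003 UMIs before thinning. In the 184 TFAP2A cells without HAND1 it was at 48.9 CPM (39.3 to 60.1), while APELA was high in both, at 117 CPM with HAND1 and 77.7 CPM without.

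**Figure D3:**
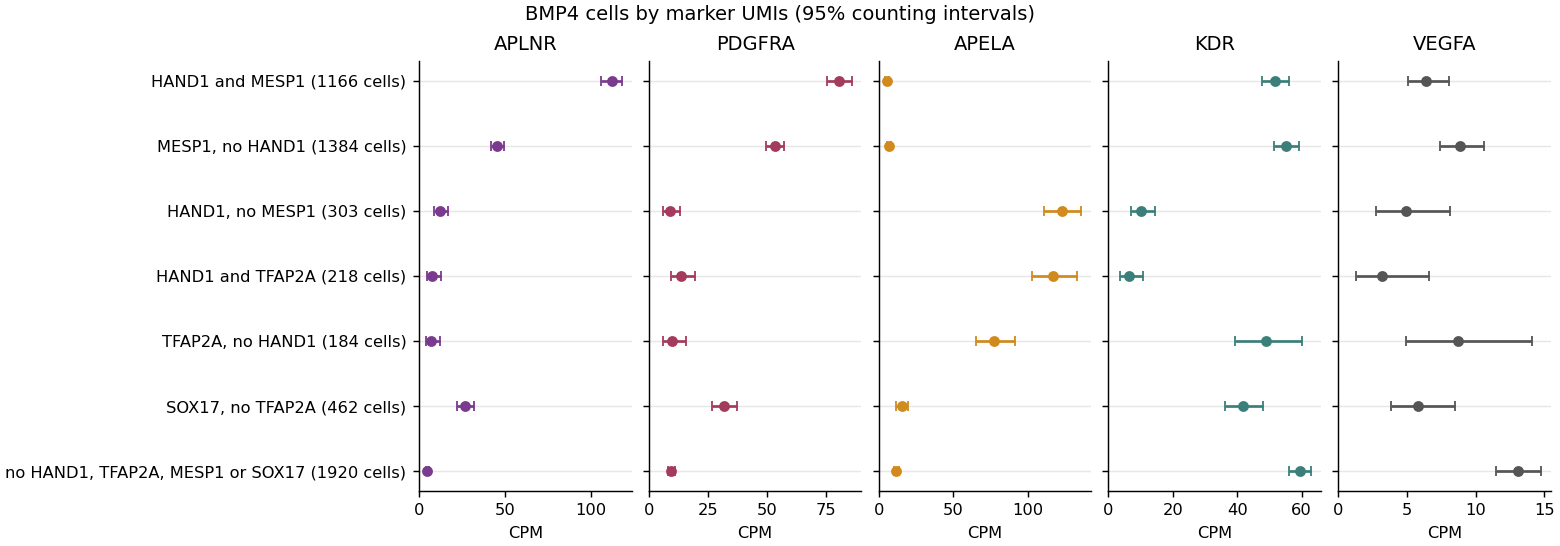
CPM of APLNR, PDGFRA, APELA, KDR and VEGFA in BMP4 cells thinned to 10000 UMIs and split by marker UMIs (at least 2 UMIs counts as carrying a marker, 0 as lacking it), with 95% counting intervals. APLNR and PDGFRA peak in the HAND1 and MESP1 cells at 112 and 80.4 CPM, APELA in HAND1 cells without MESP1 at 123 CPM, and KDR drops to 6.42 CPM in cells with HAND1 and TFAP2A.

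KDR and PDGFRA lie next to each other on chromosome 4, with KIT, another receptor tyrosine kinase, as the only protein-coding gene that starts between them in the RefSeq annotation, yet their levels differed as above. APELA lies far away on the same chromosome. The 250 bases before the annotated start are shown for these 3 genes, which share a chromosome but not a pattern over BMP4 cells, with every CG in capitals. Sequences are from RefSeq (GRCh38.p14), which had windows for 4 of the 6 genes, and the authors' build is not stated in the labels or file headers.
KDR, minus strand, chr4:55125596-55125845: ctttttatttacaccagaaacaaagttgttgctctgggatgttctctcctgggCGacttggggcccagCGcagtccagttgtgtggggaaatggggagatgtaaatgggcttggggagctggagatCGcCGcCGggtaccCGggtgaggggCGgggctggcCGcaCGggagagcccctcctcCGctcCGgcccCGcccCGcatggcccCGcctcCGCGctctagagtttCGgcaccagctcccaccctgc
PDGFRA, plus strand, upstream start, chr4:54229043-54229292: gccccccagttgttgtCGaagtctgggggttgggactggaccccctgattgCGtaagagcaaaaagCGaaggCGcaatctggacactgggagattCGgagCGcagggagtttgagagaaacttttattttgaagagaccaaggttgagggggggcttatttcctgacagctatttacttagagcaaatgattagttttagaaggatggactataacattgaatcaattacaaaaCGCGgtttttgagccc
PDGFRA, plus strand, downstream start, chr4:54233710-54233959: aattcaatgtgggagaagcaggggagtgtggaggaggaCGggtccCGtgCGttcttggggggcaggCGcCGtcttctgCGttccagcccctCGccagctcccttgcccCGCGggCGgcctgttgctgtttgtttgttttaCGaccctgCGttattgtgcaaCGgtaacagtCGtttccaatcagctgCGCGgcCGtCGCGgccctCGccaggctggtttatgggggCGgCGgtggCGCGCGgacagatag
APELA, plus strand, chr4:164876928-164877177: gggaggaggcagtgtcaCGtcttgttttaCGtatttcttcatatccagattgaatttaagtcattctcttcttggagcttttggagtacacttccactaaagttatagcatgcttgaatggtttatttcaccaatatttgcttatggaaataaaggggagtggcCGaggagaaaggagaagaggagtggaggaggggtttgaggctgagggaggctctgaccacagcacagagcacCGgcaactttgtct
The KDR window holds 17 CG and is 65.2% G or C. The PDGFRA windows hold 8 and 25 CG, at the upstream and the downstream start, and APELA's holds 4, at 45.2% G or C. Over all 35116 promoter windows of that length the median was 11 CG, and 29.3% had fewer than APELA. On either strand, TATAA occurs once in the APELA window and once in the upstream PDGFRA window, and in 18.9% of all windows. GGGCGG occurs 2 times in the KDR window and 2 times in the downstream PDGFRA window, and in 42.6% of all windows. GATAA occurs in 0 of the 4 windows and in 20.4% of all. These are descriptions of the letters, and 3' counting does not show which start was used.

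KDR was higher in MIXL1 and TBXT cells of BMP4 and lower in MIXL1 cells of both other libraries and in TBXT cells of CHIR+Activin. TBXT, MIXL1 and EOMES are transcription factors of the primitive streak. In BMP4 KDR was at 54.9 CPM in MIXL1 cells and 44.4 CPM in cells with none (log2 ratio 0.31, interval 0.19 to 0.42). In CHIR+Activin it was at 34.6 and 47.0 CPM (log2 ratio -0.44, interval -0.57 to -0.31), and in CHIR at 33.8 and 42.2 CPM (log2 ratio -0.32, interval -0.45 to -0.19). EOMES gave log2 ratios of 0.16, -0.40 and -0.34 in BMP4, CHIR+Activin and CHIR, of which the BMP4 one was -0.04 (interval -0.19 to 0.12) with cells thinned to 5000 UMIs, and TBXT gave 0.39, -0.47 and -0.20, the last with an interval that reached 0.00. KDR stood higher in SOX2 cells than in cells with none in CHIR+Activin (49.7 and 36.5 CPM) and CHIR (49.5 and 33.7 CPM), but not in BMP4 (46.4 and 52.5 CPM, log2 ratio -0.18, interval -0.40 to 0.04). Compared between libraries, KDR in SOX2 cells was alike within counting error, with a BMP4 over CHIR+Activin log2 ratio of -0.10 (interval -0.34 to 0.14). In MIXL1 cells it was 0.67 (interval 0.55 to 0.78). APELA likewise stood higher in SOX2 cells of CHIR+Activin (11.4 and 5.92 CPM) and CHIR (9.90 and 6.22 CPM) and lower in those of BMP4 (11.9 and 20.3 CPM). Between SOX2 cells of BMP4 and CHIR+Activin the log2 ratio of APELA was 0.06 (interval -0.45 to 0.54), and between cells with no SOX2 UMI it was 1.78 (interval 1.56 to 2.0). Whether these opposite directions exceed the variation between replicate libraries was not tested.

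**Figure D4:**
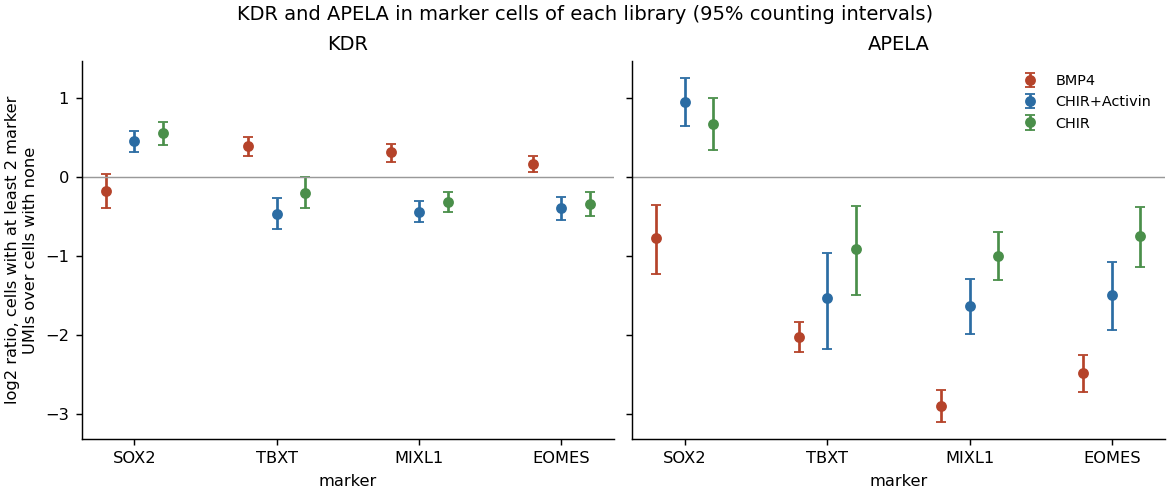
log2 ratio of KDR (left) and APELA (right) between cells with at least 2 UMIs of a marker and cells with none, for SOX2, TBXT, MIXL1 and EOMES in BMP4, CHIR+Activin and CHIR, with 95% counting intervals. KDR is above 0 for the 3 streak genes in BMP4 and below 0 in CHIR+Activin and CHIR, and both genes are above 0 for SOX2 in CHIR+Activin and CHIR.

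SOX17, a factor of endoderm and of germ cell precursors, marked cells of different receptor content. In the 82 SOX17 cells of CHIR+Activin PDGFRA was at 106 CPM, from 87 UMIs, and 7.06 CPM in cells with none. In the 674 SOX17 cells of BMP4 it was at 24.6 CPM and 38.4 CPM in cells with none. Between SOX17 cells the BMP4 over CHIR+Activin log2 ratio of PDGFRA was -2.11 (interval -2.49 to -1.72), the reverse of the ratio over all cells. APLNR did not differ between these SOX17 cells beyond counting error, which was wide (log2 ratio 0.04, interval -0.67 to 0.83). It was at 22.6 CPM in BMP4 and 22.0 CPM, from 18 UMIs, in CHIR+Activin. APELA was at 24.6 CPM in the BMP4 SOX17 cells and had 0 UMIs in the CHIR+Activin ones. In the 84 BMP4 cells with SOX17 and TFAP2A, APELA was at 58.3 CPM, and in the 462 with SOX17 and no TFAP2A UMI at 15.4 CPM.

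VEGFA was higher in every library in cells that carried DDIT4, a stress- and hypoxia-induced inhibitor of mTORC1. VEGFA stood at 15.4 CPM in BMP4 cells with at least 2 DDIT4 UMIs and 8.19 CPM in cells with none (log2 ratio 0.92, interval 0.52 to 1.29). In CHIR+Activin the values were 27.5 and 16.0 CPM (log2 ratio 0.79, interval 0.61 to 0.97), and in CHIR 40.1 and 18.4 CPM (log2 ratio 1.12, interval 0.95 to 1.29). DDIT4 cells made up 5.98% of BMP4, 36.3% of CHIR+Activin and 54.3% of CHIR cells. Among cells without a DDIT4 UMI the order of the libraries remained, with a log2 ratio of -0.96 for BMP4 over CHIR+Activin (interval -1.16 to -0.77) and -1.17 for BMP4 over CHIR (interval -1.37 to -0.97), against -1.19 and -1.75 over all cells. For CHIR+Activin over CHIR it was -0.21 (interval -0.41 to 0.00), against -0.56. VEGFA was also higher in the 881 FOXA2 cells of CHIR, at 45.4 CPM against 28.8 CPM in cells with none, and in the 388 SOX2 cells of BMP4, at 18.0 against 8.0 CPM. In FOXA2 cells of CHIR+Activin the difference was within counting error, at 23.4 against 21.1 CPM (log2 ratio 0.15, interval -0.11 to 0.40). In SOX2 cells the log2 ratio was 0.09 in CHIR+Activin (interval -0.10 to 0.28) and -0.35 in CHIR (interval -0.53 to -0.17). APLN, low as it was, was higher in DDIT4 cells of CHIR+Activin and CHIR, while BMP4 had 3 UMIs in DDIT4 cells and 16 in cells with none (log2 ratio 1.33, interval -1.09 to 3.13). It was at 1.14 CPM (27 UMIs) in CHIR+Activin DDIT4 cells and 0.0751 CPM (2 UMIs) in cells with none, and at 1.79 CPM (67 UMIs) and 0.529 CPM (10 UMIs) in those of CHIR (log2 ratio 1.76, interval 0.79 to 2.88).

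**Figure D5:**
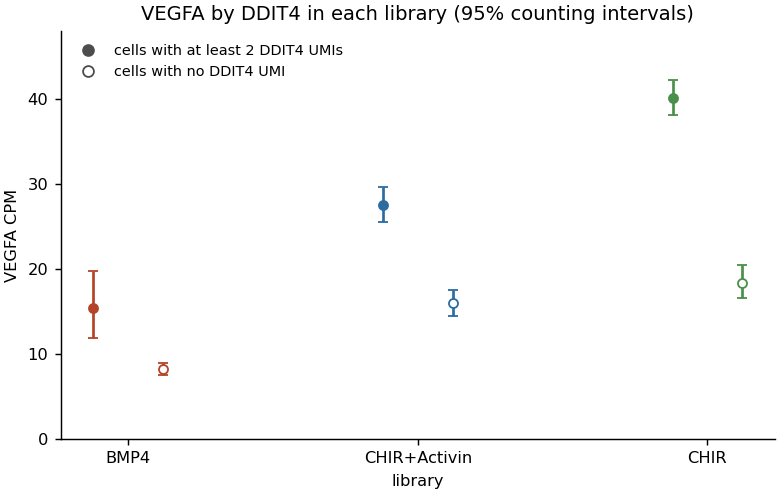
VEGFA CPM in cells with at least 2 DDIT4 UMIs (filled) and with none (open) in BMP4, CHIR+Activin and CHIR, thinned to 10000 UMIs, with 95% counting intervals. The filled point lies above the open one in each library, at 15.4 over 8.19, 27.5 over 16.0 and 40.1 over 18.4 CPM.

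Lists of hypoxia and integrated stress response genes are given beside VEGFA, and their part in its levels was not tested. Of 17 measured hypoxia genes, 3 were at least 2-fold lower and 1 higher in BMP4 than in CHIR+Activin (median log2 ratio -0.53, beside 0.01 over all genes), where 1.84% of all genes were lower and 2.88% higher. Against CHIR 4 were lower and 1 higher (median -0.77, beside -0.03), where 2.85% of all genes were lower and 3.09% higher. The higher one in both was the oxygen-sensing hydroxylase gene EGLN3, with log2 ratios of 1.90 and 1.97. Of 9 measured integrated stress genes, 5 were at least 2-fold lower in BMP4 than in CHIR+Activin and 6 than in CHIR (medians -1.07 and -1.41), beside the same shares of all genes. Between CHIR+Activin and CHIR 0 genes of either list stood 2-fold apart (medians -0.27 for hypoxia and -0.51 for integrated stress, beside -0.05 over all genes). Within CHIR, the summed hypoxia list was at 5212 CPM in cells with a VEGFA UMI and 4300 CPM in the others (log2 ratio 0.28, interval 0.27 to 0.29), and the integrated stress list at 1300 and 1069 CPM (log2 ratio 0.28, interval 0.26 to 0.30). The ratios of the hypoxia and integrated stress lists were 0.16 and 0.23 in CHIR+Activin and 0.15 and 0.12 in BMP4. Other lists differed too, some by more. The epiblast list was at 0.23 in BMP4 (interval 0.20 to 0.26), above both lists there. In CHIR the definitive endoderm list was at 0.25 (interval 0.19 to 0.32), somewhat under both lists there. In the other direction, the amnion list was at -0.59 in BMP4 (interval -0.77 to -0.42). The nascent mesoderm list was at -1.09 in CHIR+Activin (interval -1.47 to -0.72) and the lateral or extraembryonic mesoderm list at -0.36 in CHIR (interval -0.58 to -0.14).

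The genes most like each member were found by Pearson's r over cells of log2 (thinned UMIs + 1), in the library where that member was highest, among genes of at least 10 CPM. All genes of a library share its cells and depth, so these values are descriptions. APLNR was most like LZTS1 (r = 0.51), the endoderm and mesoderm factor GATA6 (0.51) and the semaphorin co-receptor PLXNA2 (0.50) over 7041 BMP4 cells. In CHIR+Activin their r with APLNR was 0.29, 0.32 and 0.28, and in CHIR 0.07, 0.10 and 0.06. PDGFRA was most like CER1, a secreted protein that binds and blocks NODAL and BMP ligands (0.49), CNKSR3 (0.47) and GATA6 (0.46), and in CHIR+Activin these were at 0.37, 0.29 and 0.42. APELA was most like the tight junction gene CLDN10 (0.53), HPGD, which degrades prostaglandins (0.51), and the kinase SGK1 (0.41). CLDN10 had r = 0.03 with APELA in CHIR+Activin and 0.01 in CHIR, where HPGD and SGK1 were under 10 CPM. KDR had no close match, its highest r being 0.14 with LDB2, 0.12 with MAGI2 and 0.12 with LRFN5 in BMP4. VEGFA was most like DDIT4 (0.19), PGK1 (0.17) and LDHA (0.16) over 6892 CHIR cells, the last pair being glycolysis enzymes, and of the hypoxia and integrated stress lists these 3 were also the highest. For APLN the highest r was 0.08, with PGK1, too weak to read.

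Counts of APLNR, PDGFRA and APELA varied between BMP4 cells more than counts of KDR and VEGFA. After thinning, the variance over the mean was 1.76 for APLNR, 1.78 for PDGFRA and 2.07 for APELA, against 1.30 for KDR and 1.03 for VEGFA. A UMI of each of the 3 receptors was found in 305 of 7041 BMP4 cells (4.33%, interval 3.87 to 4.83), and a UMI of none of them in 2817 (40.0%). As a background, PDGFRA UMIs were found in 9.02% of BMP4 SOX2 cells and KDR UMIs in 5.50% of cells with HAND1 and TFAP2A, and the part of free RNA in the joint share was not tested. Cells with all 3 had 598 CPM of MESP1 and 3.28 CPM of APELA. The 495 with APLNR and PDGFRA but no KDR UMI were much alike, at 558 CPM of MESP1 and 2.83 CPM of APELA. Cells with none of the 3 had 119 CPM of MESP1 and 32.3 CPM of APELA. A KDR UMI was found in 36.9% of BMP4 cells with a PDGFRA UMI and in 36.9% of those without. In CHIR+Activin 7 of 6543 cells (0.107%, interval 0.0430 to 0.220) and in CHIR 2 of 6892 cells (0.0290%, interval 0.00351 to 0.105) had all 3.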

How the data were processed

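RNA was measured by 10x Genomics Chromium 3' single-cell sequencing in 3 libraries, 1 per treatment. What the authors deposited are UMI counts, unnormalized, with genes in rows and barcodes in columns. Per the file headers the counting software was Cell Ranger 8.0.1, while the submitters' processing notes also name Seurat, with no version. No label or header names a genome build or annotation. BMP4 barcodes with at least 3739 UMIs were taken as cells, and in all libraries those with under 2000 genes or over 15% mitochondrial UMIs were left out (39 BMP4, 515 CHIR+Activin and 622 CHIR barcodes). Doublets were kept, and their removal is an alternative. UMIs were summed and scaled to CPM. Ratios carry exact conditional binomial intervals, levels Poisson and shares Clopper-Pearson intervals, and 3 counts stand in for 0 in a ratio. A floor of 3 counts is 0.0219 CPM in BMP4, 0.0230 in CHIR+Activin and 0.0162 in CHIR. UMIs remove PCR copies, so intervals cover counting error only. Cells were thinned to 10000 UMIs and groups under 50 cells were not used. The steps were tested on simulated data. Python 3.11 with numpy, scipy and scikit-learn was used. Named were the members, pathway list genes of at least 10 CPM, the marker genes and the 3 genes most like each member. PDGFA, PDGFB and PDGFC fall outside that rule and were named after their values were seen, as were EGLN3 and 6 endothelial or blood markers. Members, lists and markers were chosen with earlier results of these data known. The joint splits by HAND1, MESP1, TFAP2A and SOX17, and the comparisons within marker cells, were added after the values were seen.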

Additional observations from a re-analysis of the deposited data

Results flagged for a closer look

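Some members differed in opposite directions between marker cells and cells without the marker in different libraries, each ratio with an interval that excludes 0. The difference between libraries was not tested in any of these, since each treatment is 1 library. All values are log2 ratios of cells with at least 2 marker UMIs over cells with none.

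KDR in MIXL1 cells was at 0.31 in BMP4, -0.44 in CHIR+Activin and -0.32 in CHIR. In EOMES cells it was at 0.16, -0.40 and -0.34 in the same order (the BMP4 value is -0.04 at 5000 UMIs), and in TBXT cells at 0.39 in BMP4 and -0.47 in CHIR+Activin. APELA in SOX2 cells was at -0.78 in BMP4, 0.95 in CHIR+Activin and 0.67 in CHIR. In DDIT4 cells it was at -0.54, 0.35 and -0.33. SOX17 cells had APLNR at -0.89 in BMP4 and 2.95 in CHIR+Activin, and PDGFRA at -0.64 in BMP4 and 3.91 in CHIR+Activin, where 82 cells make up the group. VEGFA in SOX2 cells was at 1.17 in BMP4 and -0.35 in CHIR.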

How the results depend on the processing

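Each of the members' ratios between libraries was recomputed under 5 alternatives (median-of-ratios size factors, means over cells, a stricter cell filter of 3000 genes and 10% mitochondrial UMIs, and removal of the 6% of cells with the highest doublet score or the most UMIs). APLNR ranged from 3.62 to 3.72 for BMP4 over CHIR+Activin, PDGFRA from 2.02 to 2.11, APELA from 1.23 to 1.36, KDR from 0.27 to 0.33 and VEGFA from -1.23 to -1.18, and the member counts kept their values. Without the 10 CPM minimum the counts change by construction: 2 members were lower in BMP4 than in CHIR and 2 higher in CHIR+Activin than in CHIR, and over all genes 2756 were higher and 2172 lower (BMP4 over CHIR+Activin), 2988 and 2766 (BMP4 over CHIR) and 1199 and 1425 (CHIR+Activin over CHIR). Genes at least 2-fold lower in CHIR+Activin than in CHIR numbered 1 with size factors, 4 with means over cells and 4 without the cells of most UMIs, against 2.

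In BMP4, APELA in APLNR cells over the others was -2.42 thinned to 5000 UMIs, -2.68 with at least 2 APLNR UMIs and -2.16 without the cells of most UMIs. PDGFRA was 1.60 thinned to 5000, 2.14 with at least 2 APLNR UMIs and 1.94 without the highest doublet scores. In alternatives added after the values were seen, APLNR and PDGFRA in MESP1 cells were at -0.07 and -0.25 (BMP4 over CHIR+Activin), with intervals that include 0. Thinned to 5000, KDR in EOMES cells of BMP4 was -0.04 and VEGFA in TBXT cells of CHIR 0.00, with intervals that include 0. The cause was not tested in these cases. No paired analysis was possible because each treatment has 1 library. Counts were fewest for APLN and, in CHIR, for the 68 APLNR cells.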
